A study of Mus musculus with 249 samples.

Results

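The genes described here are 9 immediate early genes: the transcription factors Egr1, Egr2, Egr4, Fos, Junb, Nr4a1 and Npas4, the synaptic gene Arc and the phosphatase gene Dusp1. They were taken by name. Of 10 genes looked for, these 9 had a probe that carried no other symbol, with 1 probe each, among 11508 genes with a value. The tenth, Fosb, was not analysed here. All 9 probes were measured on all 249 arrays.

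The animals were F2 mice of both sexes from C57BL/6J and C3H/HeJ parents. All of them were ApoE null and had Western diet between the ages of 8 and 24 weeks, so ApoE loss and the diet are shared by every animal and no unaffected control enters a comparison. Total RNA of each brain, labelled with Cy3, was hybridised with a pool of all samples in Cy5, on 1 array per animal. The labels name 330 mice, and 249 arrays were analysed here, as 1 group. For a given animal the labels name neither sex, genotype nor array batch, nor the time of day or handling before the brain was taken. Values are given as log10 of animal over pool, where 0.301 corresponds to a factor of 2. The ratio to a pool of the same tissue shows differences between animals and not the level of a gene, so brain markers could not be used to check the tissue, and levels of different genes are not compared. Array by array, the SD over probes was 0.392 for animal 144 and between 0.0585 and 0.258 (median 0.0764) for the other 248. Animal 144 was left out, so every value below is over 248 animals unless said otherwise.

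Immediate early genes need no new protein to be transcribed: calcium entry and MAP kinase signalling activate factors that already sit on their promoters, such as CREB and SRF, and the transcripts appear within minutes and decay soon after. In the brain they are used as markers of recently active neurons, and they also respond to handling, stress, seizures and the manner of death. Most of them encode transcription factors that switch on later genes, while Arc acts at synapses and Dusp1 ends the MAP kinase signal that induced it.

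CREB binds the motif TGACGTCA, called CRE, or its core TGACG, and SRF binds the CArG box. The promoter windows of RefSeq on GRCm38.p6, from 250 bases before to 50 bases after a transcript start, covered 7 of the 9 genes with 11 windows. No window covered Egr1 or Arc, and sites farther from a start were not searched. The windows were searched on both strands, so that TGACG can also read CGTCA, and a full CRE counts as a core too. The CRE core was found in windows of 7 of 7 genes, and in 20.8% of all 32851 windows and 23% of the 27025 genes that have one. In the 150 bases before the start alone it was found for 6 of 7, against 15% of genes. The full CRE was found only at Dusp1 among the 7 (1.79% of windows and 2.03% of genes). The CArG box was found only at Egr2 (1.63% of windows and 1.81% of genes). The letters of a TATA box, TATAAA, were found at 2 of the 7 (13.6% of windows and 15.7% of genes). At Fos they lay 33 bases before the start, while at Junb they began at the start itself and not before it. A binding site of the EGR factors, GCGNGGGCG, was found at Nr4a1 (5.55% of windows and 6.27% of genes). The AP-1 site TGANTCA, which Fos and Junb proteins bind, was found at 0 of 7 (7.81% of windows and 8.97% of genes). A match describes the letters and is not evidence of binding. The 200 bases before the start of 4 genes are shown to place the CRE core, which each of them holds, in genes of different roles, with the CRE core or full CRE and the TATA box in capitals. Each is written in the direction of transcription. The windows of Egr2 held 2 different CArG boxes, CCTTTTTTGG in 1 window and CCATATATGG in 3 overlapping windows. The 30 bases around the latter are shown, with the box in capitals.

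Fos, chr12:85473690-85473889, plus strand: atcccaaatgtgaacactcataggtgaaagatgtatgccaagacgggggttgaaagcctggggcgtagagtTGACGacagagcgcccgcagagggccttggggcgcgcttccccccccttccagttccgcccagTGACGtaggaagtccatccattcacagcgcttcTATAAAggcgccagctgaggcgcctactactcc
Dusp1, chr17:26508473-26508672, minus strand: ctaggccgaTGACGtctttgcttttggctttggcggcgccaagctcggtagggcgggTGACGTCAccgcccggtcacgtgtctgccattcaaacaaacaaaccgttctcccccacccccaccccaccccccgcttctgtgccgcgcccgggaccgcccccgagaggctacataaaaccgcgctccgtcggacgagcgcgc
Junb, chr8:84978749-84978948, minus strand: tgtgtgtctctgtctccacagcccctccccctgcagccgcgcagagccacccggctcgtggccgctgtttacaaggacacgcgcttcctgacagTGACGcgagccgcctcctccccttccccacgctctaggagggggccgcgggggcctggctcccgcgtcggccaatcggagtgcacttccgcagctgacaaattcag
Egr4, chr6:85513590-85513789, minus strand: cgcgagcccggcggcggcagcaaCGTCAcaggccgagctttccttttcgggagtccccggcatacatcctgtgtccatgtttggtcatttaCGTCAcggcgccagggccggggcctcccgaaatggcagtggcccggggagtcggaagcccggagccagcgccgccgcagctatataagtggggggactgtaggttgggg
Egr2, chr10:67537787-67537816, plus strand: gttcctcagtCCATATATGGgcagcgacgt

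The early genes differed widely in how much they varied between brains. The zinc finger gene Egr2 ran from -0.748 in animal 178 over a median of -0.0499 to 0.447 in animal 28, with an SD of 0.201 (n = 248). Its SD lay above that of 99.1% of all genes, whose median was 0.0546. Between the 5th and 95th percentiles Egr2 spanned 4.26-fold, against a median of 1.45-fold over all genes. Arc, which binds the cytoskeleton at synapses and removes glutamate receptors from the surface, ran from -0.402 in animal 263 over -0.0285 to 0.511 in animal 8. Its SD was 0.171 (98.5% of genes lower) and its span 3.60-fold. Egr4, another zinc finger factor of the family, ran from -0.536 in animal 336 over -0.0186 to 0.482 in animal 8, with an SD of 0.155 and a span of 2.93-fold.

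Egr1, Dusp1 and the orphan nuclear receptor gene Nr4a1 varied less than these 3 and more than most genes. Egr1 ran from -0.355 in animal 89 over -0.0506 to 0.269 in animal 14, with an SD of 0.118 (95.4% of genes lower). Dusp1 ran from -0.314 in animal 347 over -0.0338 to 0.277 in animal 7, with an SD of 0.116 (95.0% of genes lower). Nr4a1 ran from -0.263 in animal 42 over -0.0177 to 0.388 in animal 14, with an SD of 0.113 (94.6% of genes lower).

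The AP-1 subunits and Npas4 lay closer to the pool. Fos, the AP-1 subunit that is the usual marker of active neurons, ran from -0.184 in animal 257 over -0.00973 to 0.220 in animal 259. Its SD of 0.0685 was above that of 69.9% of genes. Junb, its partner subunit, ran from -0.184 in animal 241 over -0.00488 to 0.226 in animal 8, with an SD of 0.0546, at the middle of all genes (49.9% lower). Npas4, a factor induced in neurons by calcium entry, ran from -0.0726 in animal 261 over -0.0138 to 0.189 in animal 151, and its SD of 0.0342 was above that of only 14.0% of genes. Intensities were not analysed here, so the signal over background of these probes is unknown. With 1 array per animal the measurement error of a single value is unknown.

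**Figure D1:**
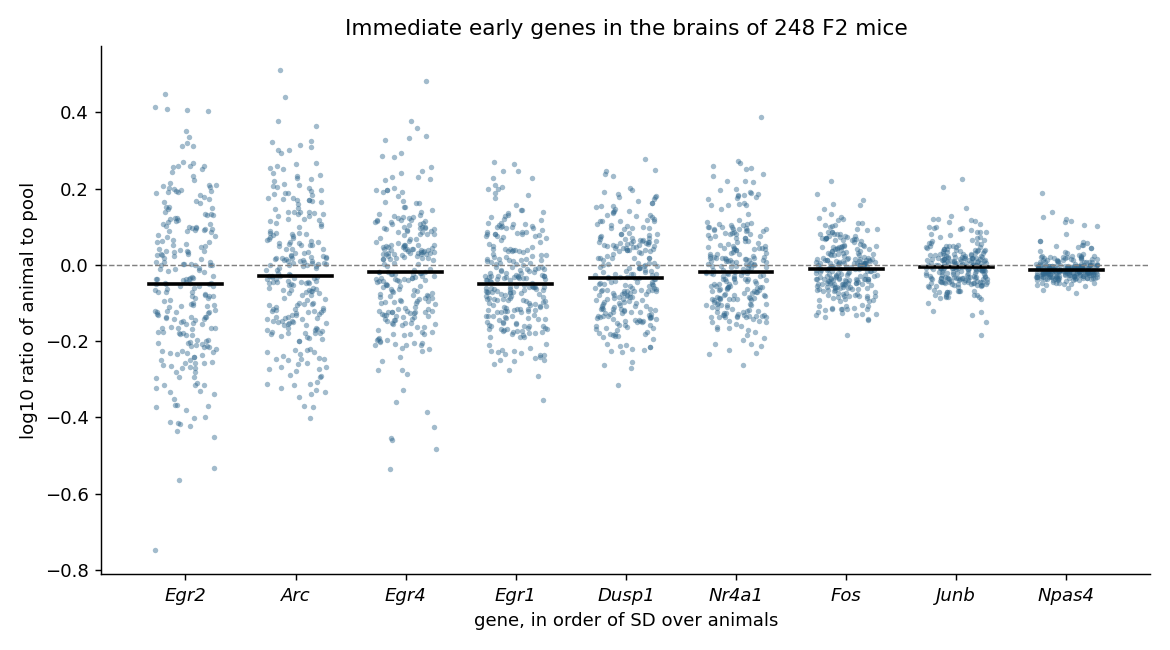
Each point is 1 of 248 animals, the black bar is the median, the y axis is the log10 ratio of animal to pool and the dashed line is the pool. Egr2 (SD 0.201), Arc (0.171) and Egr4 (0.155) spread widest, and Npas4 (0.0342) least.

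High and low values fell in the same animals for all but Npas4. Animal 8 held the highest Arc, Egr4 and Junb, and there Egr2 stood at 0.402, Nr4a1 at 0.255, Dusp1 at 0.246, Egr1 at 0.177 and Fos at 0.159, while Npas4 stood at -0.0470. Animal 263 held the lowest Arc, with Egr2 at -0.418, Egr1 at -0.290, Egr4 at -0.202, Dusp1 at -0.176, Nr4a1 at -0.138, Fos at -0.116 and Junb at -0.0704. Of the 248 animals 38 lay above the median of all 8 genes other than Npas4 and 47 below all 8, together 34.3%. Arc and Dusp1 lay on the same side of their medians in 224 animals, and Egr4 and Fos in 160. Animal 178 was an exception among those with extreme values: its Egr2 was the lowest of all, while Nr4a1 stood at 0.232 and Junb at 0.112.

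In limma fits of every gene on 1 early gene at a time, with Benjamini-Hochberg adjustment over all genes, a pair was called when its adjusted p was under 0.05 in both directions of the fit. Of the 36 pairs, 29 were called positive and 2 negative. All 28 pairs among the 8 genes other than Npas4 were called positive, with a largest adjusted p of 1.17e-07. Their Pearson r ran from 0.388 to 0.848 with a median of 0.617, and Spearman rho from 0.378 to 0.859. Every one of these r and rho reached 1e-05, the smallest p that 100000 permutations of animals can give (two-sided). Calls were rare over all genes for some of the 8 and common for others. Of all genes tested, 0.495% were called higher with Dusp1 and 2.12% with Arc. The share was 25.8% with Junb, 27.1% with Egr1 and 32.9% with Egr4. In order of r with Egr4 over all genes, Junb stood at place 34 and Fos at place 1222. Leaving out the 2 animals farthest from the median of a gene moved the range of r to 0.381 to 0.840. With 10 blocks of animal number as a covariate all 28 were called, with r from 0.322 to 0.821. In the lower 124 animal numbers all 28 were called and in the higher 124 numbers 27, where Egr1 and Junb had an r of 0.197. In bulk tissue fewer active cells and less transcript per cell cannot be told apart.

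Arc stood at the centre of the group. Its r with the mean z (each gene scaled to an SD of 1 and averaged) of the other 8 was 0.890, against 0.799 for Egr2, 0.765 for Dusp1, 0.762 for Fos, 0.742 for Nr4a1, 0.721 for Egr1, 0.679 for Junb and 0.528 for Egr4. Arc and Dusp1 had the highest r of any pair, 0.848 (rho 0.859). Among Arc, Dusp1, Fos and Egr2 the 6 pairs lay between 0.702 and 0.848. Among the 11507 other genes tested with each, Arc was the closest to Dusp1, Egr2, Fos and Nr4a1. For each doubling of Arc, Egr2 was 1.93-fold higher (slope 0.949 ± 0.0442, SE), Dusp1 1.49-fold (0.575 ± 0.0229), Egr4 1.40-fold, Nr4a1 1.39-fold, Egr1 1.35-fold, Fos 1.25-fold (0.322 ± 0.0152) and Junb 1.16-fold.

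Within the EGR family, Egr1 and Egr2 had an r of 0.701, Egr1 and Egr4 of 0.534 and Egr2 and Egr4 of 0.496. Among the 8 genes other than Npas4, Egr4 was closest to Junb (0.705) and farthest from Fos (0.388) and Dusp1 (0.402), and Egr1 was closest to Egr2 and farthest from Dusp1 (0.440). The first 3 principal components of the other genes held 15.5%, 13.9% and 7.87% of the variance. With them as covariates the EGR pairs had a higher r, 0.869 (Egr1 with Egr2), 0.833 (Egr1 with Egr4) and 0.828 (Egr2 with Egr4). The median over the 28 pairs was 0.741. In that setting r of Egr4 with Junb was lower, at 0.595. It was then the lowest r of Egr4 with any early gene other than Npas4, so its order of closeness depended on the covariates. With animal 144 included, r of Egr4 and Dusp1 was 0.0554 and that pair was not called.

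**Figure D2:**
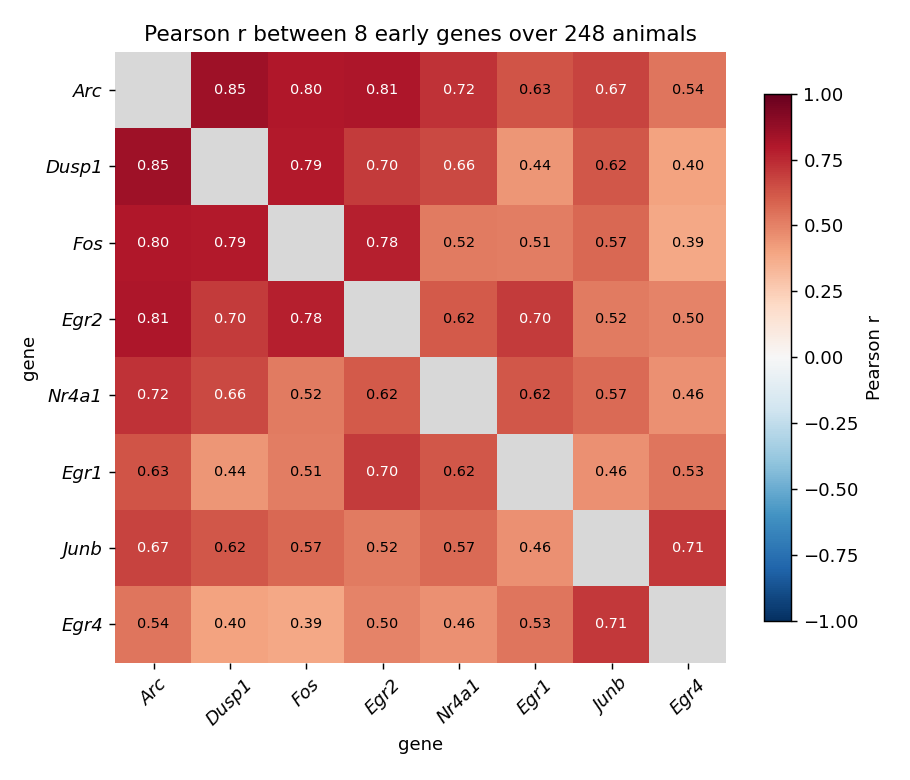
Each cell gives the Pearson r over 248 animals between the early genes of its row and column, from blue (-1) to red (1), with Npas4 left out and the diagonal in grey. Arc, Dusp1, Fos and Egr2 form the darkest square (0.702 to 0.848), and Egr4 is paler except with Junb (0.705).

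Npas4 stood apart from the other early genes. A mixture of 2 normals split its values into an upper component of 11 animals (0.0619 to 0.189, median 0.112) and a lower one of 237 (-0.0726 to 0.0590, median -0.0151). The components adjoin with no gap, and the values had a long upper tail (skewness 2.24, excess kurtosis 7.47). Whether the components are separate groups of animals or 1 tail was not tested, and r is given within each as a description. Among the 237 animals, r with Npas4 was 0.234 for Egr1 and -0.261 for Egr4, with permutation p of 0.00026 and 7e-05, or 0.00104 and 0.00056 after Benjamini-Hochberg adjustment over the 8 genes. The sign for Egr1 depended on the covariates: over all 248 animals its r with Npas4 was 0.187, and -0.301 with 3 principal components as covariates, while that of Egr4 was -0.443 and -0.282. For Nr4a1 r among the 237 animals was 0.114, for Arc -0.0329, for Dusp1 -0.0342, for Junb -0.0389, for Fos -0.0567 and for Egr2 -0.0716. None of these passed (lowest adjusted permutation p 0.215). Among the 11 animals no gene passed; Egr4 had the lowest adjusted permutation p, 0.202, with an r of -0.651. In these 11 animals Egr4 ran from -0.536 over a median of -0.253 to 0.0313, and in the 237 from -0.425 over -0.00339 to 0.482, so the ranges overlap. Over genes, the SD of the arrays of the 11 animals had a median of 0.111 and that of the 237 one of 0.0817, and 4 of the 11 were among the 12 arrays of largest SD. The part of array spread in the values of Npas4 was not tested. In the fits over all animals Npas4 was called with 5 of the 8 others in its own direction of the fit, Egr1 higher and 4 genes lower, while 36.2% of all genes were called higher and 32.7% lower. The 5 of 8 stand beside 68.9% of all genes called either way. The genes closest to Npas4 were Rab25, a GTPase of epithelia (r 0.883), the homeobox gene Barx2 (0.861) and Hcrtr1, a receptor for orexin (0.847).

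The early genes differed in how many other genes varied with them. Dusp1 was associated with few: in its fit 0.495% of 11507 genes were higher in animals with more Dusp1 and 0.226% lower, and 7 of the 8 other early genes were called higher. Arc was associated with 2.12% higher and 1.22% lower, and Egr2 with 5.22% and 5.55%, each with 7 of 8 early genes higher. Fos came next with 13.2% and 14.2%, then Nr4a1 with 18.9% and 20.6%, again with 7 of 8 higher. For Egr1 the shares were 27.1% and 20.1% with 8 of 8 higher, for Junb 25.8% and 26% with 7 of 8, and for Egr4 32.9% and 32.7% with 7 of 8. The median r with the other early genes was 0.697 for Arc, 0.642 for Dusp1 and 0.477 for Egr4, while the median absolute r over all genes was 0.0634, 0.0586 and 0.204. The counts of Arc and Dusp1 moved with the setting. Arc was called with 384 genes, with 4077 when animal 144 was included and with 46 without the 25 animals of lowest number; Dusp1 was called with 83, 3506 and 153.

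The genes closest to each early gene differed as well. The nearest outside the group to Arc were Ier2, an early gene regulator (r 0.720), Btg2, an antiproliferative early gene (0.636), and Ccn1, a secreted matrix protein formerly Cyr61 (0.620). The same 3 were nearest to Dusp1, with Btg2 at 0.780, Ier2 at 0.762 and Ccn1 at 0.632, and to Fos, with Btg2 at 0.694, Ccn1 at 0.574 and Ier2 at 0.554. For Junb they were Ier2 (0.687), Btg2 (0.670) and the nuclear protein gene Csrnp1 (0.578). For Egr2 they were the zinc finger gene Klf10 (0.593), the cyclooxygenase gene Ptgs2 (0.585) and Ier2 (0.541), and for Nr4a1 Ier2 (0.581), the Mediator subunit Med1 (0.506) and TPX2 (0.503). Egr1 was nearest to Nrgn, the calmodulin-binding protein neurogranin of forebrain dendrites (0.647), Fbxl14 (0.626) and the mitochondrial fusion gene Mfn2 (0.617). Egr4 was nearest to genes not known as early genes: Rtn4rl2, a Nogo receptor homologue (0.805), the actin-bundling gene Fscn1 (0.767) and Otud7a (0.762).

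**Figure D3:**
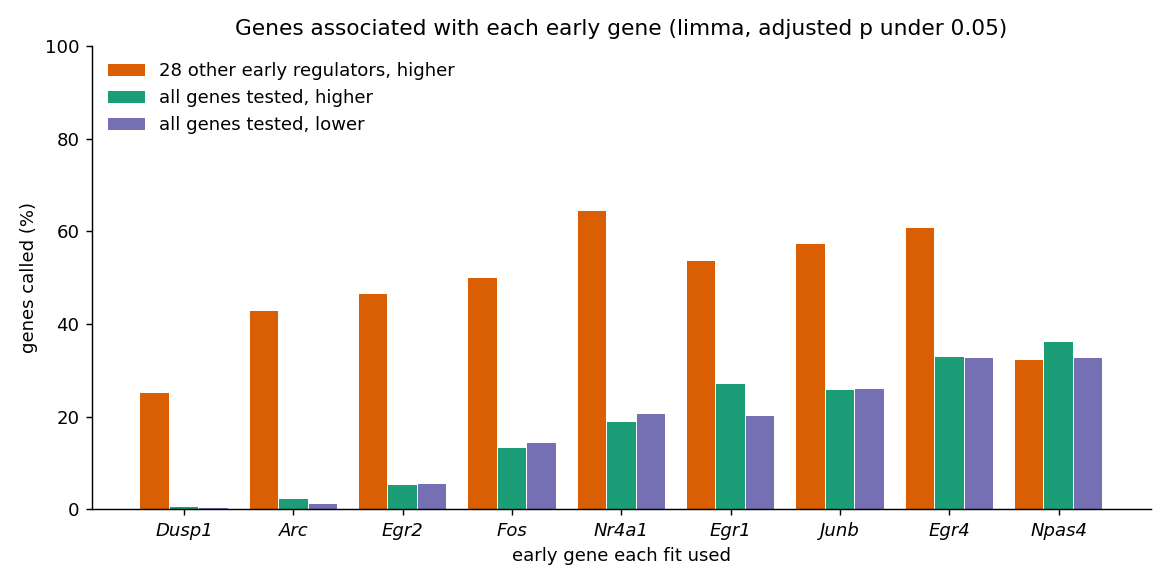
Bars give the percent of genes called by limma at an adjusted p under 0.05 with each early gene, from 0 to 100: orange for 28 other early regulators that were higher, green and violet for all 11507 genes that were higher and lower. For Dusp1 and Arc the orange bars (7 and 12 of 28 genes) stand far above the rest (0.495% and 2.12% higher), and for Npas4 (9 of 28) the orange bar is below the green (36.2%).

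Of the 20 genes outside the group with the highest r with the mean z of all 9, 10 belonged to lists of early genes. These were the lists of other early regulators and of effectors, with 28 and 25 measured genes among the 11499 compared. Both lists were chosen with earlier results of these data known, so the 10 of 20 is a description. The highest of the 20 were Ier2 (0.702), Btg2 (0.640), Ccn1 (0.615), Csrnp1 (0.565) and the nuclear receptor gene Nr4a2 (0.531), a relative of Nr4a1. Then came Tnfrsf25, a receptor of the TNF family (0.488), Klf10 (0.479), the stress-response gene Gadd45b (0.458), Klf2 (0.452), the clock gene Per1 (0.435) and Plcl2 (0.426). The others were Madd (0.399), Riox1 (0.386), Gm4798 (0.376), the ephrin gene Efnb1 (0.372), Ptprn2 (0.355), Myo10 (0.350), Ptgs2 (0.346), Mycn (0.346) and Etv5 (0.345). The lowest were Cd83 (-0.416), Tuft1 (-0.383), Fhl4 (-0.377), Il23a (-0.374) and Zc3h6 (-0.372). Only 49 of 11499 genes, 0.426%, had an r over 0.3.

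The list of other early transcription factors and regulators held 28 measured genes of 29. With Arc, 12 were called higher and 0 lower (limma; 14 and 0 at an unadjusted p under 0.05), against 2.12% and 1.22% of all genes, and the median r was 0.127 against -0.00270. With Dusp1 it was 7 higher and 0 lower (14 and 1 unadjusted), against 0.495% and 0.226% of all genes. With Egr2 it was 13 and 1 against 5.22% and 5.55%, and with Fos 14 and 0 (14 and 2 unadjusted) against 13.2% and 14.2%. With Nr4a1 18 were higher and 2 lower against 18.9% and 20.6% of all genes, and with Egr1 15 and 1 against 27.1% and 20.1%. With Junb it was 16 and 2 against 25.8% and 26%, and with Egr4 17 and 2 against 32.9% and 32.7%. With Npas4 9 were higher and 12 lower, against 36.2% and 32.7%. Ier2, Btg2, Csrnp1, Nr4a2, Klf10, Klf2 and Per1 were called higher with 8 of the 9 early genes each. Of the close relatives of the group in this list, Nr4a2 was thus called with 8, while Egr3, Jun, Jund, Fosl1, Fosl2 and Nr4a3 were called higher with 1 to 3 each. Their adjusted p with Arc all missed the threshold, with r of -0.0451, 0.0255, 0.0705, 0.0429, -0.000383 and 0.146. With other early genes some were called: Jund had an r of 0.703 with Egr4 and 0.372 with Junb, Fosl2 of 0.259 and Nr4a3 of 0.212 with Nr4a1, and Egr3 of -0.262 with Egr2. With Npas4, Fosl2 (0.542), Egr3 (0.515) and Jun (0.383) were called higher and Jund (-0.274) lower. Fosl1 (-0.0886) and Nr4a3 (0.0350) were not called with Npas4. The SD of Egr3 was 0.0230 and that of Fosl2 0.0269. These 6 were picked with their values in view. The lowest r of the list with the mean z was that of Btg1 (-0.0324). The count with Arc was 7 without the 25 animals of lowest number and 5 in the higher 124 numbers.

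The list of activity-regulated effectors, genes that carry out later steps at synapses or in the cell, held 25 measured genes of 27. With Arc, 11 were called higher and 0 lower (limma; 15 and 0 unadjusted), with a median r of 0.176, where 2.12% of all genes were higher and 1.22% lower. With Dusp1 it was 6 and 0 (8 and 0 unadjusted) against 0.495% and 0.226%, with Egr2 10 and 1 against 5.22% and 5.55%, and with Fos 10 and 1 against 13.2% and 14.2%. The shares over all genes were larger for the others: 12 and 2 effectors with Egr1 stood against 27.1% and 20.1%, 11 and 4 with Nr4a1 against 18.9% and 20.6%, and 11 and 4 with Junb against 25.8% and 26%. The 11 and 6 with Egr4 stood against 32.9% and 32.7%, and the 7 and 12 with Npas4 against 36.2% and 32.7%. Ccn1 and Gadd45b led the list, and Pcsk1, a prohormone convertase, had the lowest r with the mean z (-0.123). Some genes picked with their values in view had quite different r with different early genes. The growth factor gene Bdnf had an r of 0.423 with Egr2, 0.229 with Arc and -0.0890 with Egr4, and Ptgs2 had 0.585 with Egr2, 0.524 with Fos and 0.0732 with Egr4. The kinase gene Plk3 had 0.644 with Egr4 and 0.157 with Arc, and Fbxo33 had -0.658 with Egr4 and -0.0562 with Arc. Whether these r differ was not tested. The count with Arc was 4 without the 25 animals of lowest number and 2 in the higher 124 numbers.

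**Figure D4:**
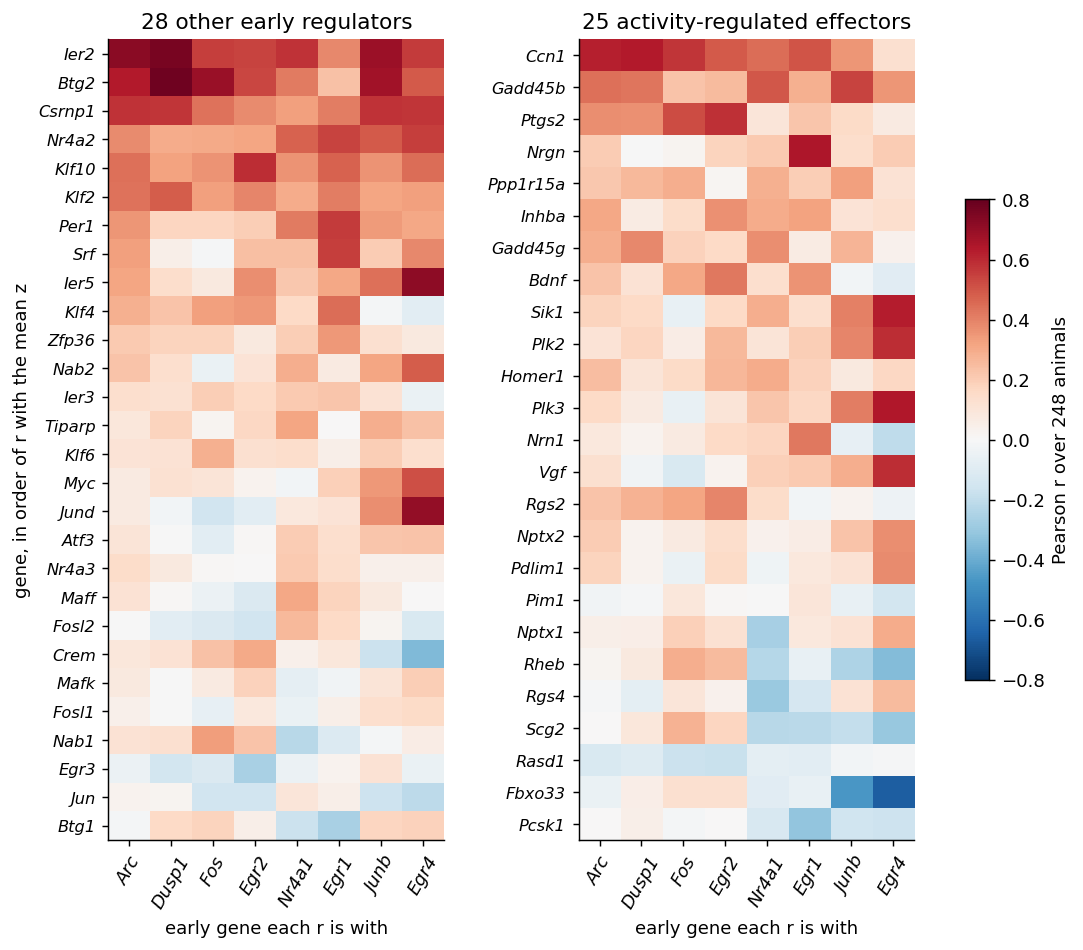
Rows are 28 other early regulators and 25 effectors in order of their r with the mean z of the 9 early genes, columns are 8 early genes, and colour is Pearson r over 248 animals from blue to red. Ier2, Btg2 and Ccn1 are red in nearly every column, and rows such as Plk3 and Fbxo33 are strongly coloured mainly under Egr4 and Junb.

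Counts differed between the lists of upstream genes and of other stress pathways. Over all genes, 2.12% were higher and 1.22% lower with Arc, 0.495% and 0.226% with Dusp1, 5.22% and 5.55% with Egr2 and 13.2% and 14.2% with Fos. Of 13 measured genes of calcium, MAP kinase and CREB signalling, 1 was higher and 1 lower with Arc and 0 with Dusp1 (limma; 1 higher and 2 lower unadjusted). With Fos it was 4 and 1, and with Egr2 2 and 1. With Egr1 7 were higher and 2 lower, against 27.1% and 20.1% of all genes. With Nr4a1 it was 4 and 2, against 18.9% and 20.6%, and with Junb 4 and 2, against 25.8% and 26%. With Egr4 it was 4 and 4, against 32.9% and 32.7%, and with Npas4 8 and 2, against 36.2% and 32.7%. In that list the kinase gene Prkaca (0.295) and the glutamate receptor gene Grin2a (0.294) had the highest r with the mean z and Creb1 (-0.114) the lowest. Of 10 other MAP kinase phosphatases and feedback inhibitors, 0 were called with Arc (3 higher unadjusted) and 1 was higher with Dusp1. With Egr2 and with Fos 2 were higher and 0 lower, and with Egr1 and with Nr4a1 1 and 2. With Junb it was 3 and 1, with Egr4 4 and 1 and with Npas4 1 and 7, beside the shares of all genes given above. Dusp5 (0.199) and Dusp14 (0.194) were at the top of that list and Dusp10 (-0.160) at the bottom. Of 13 genes induced by glucocorticoids, 3 were higher with Arc, 2 with Dusp1, 4 with Fos and 4 with Egr2, and 0 lower with any of these 4 (limma; 0 lower with Arc, Dusp1 and Egr2 and 1 with Fos unadjusted). Cdkn1a, a cell cycle inhibitor (0.244), and Klf9 (0.199) led that list and Sult1a1 (-0.0238) closed it. Of 9 heat shock proteins, 5 were higher with Egr2, 2 with Fos, 1 with Arc and 0 with Dusp1 (0 unadjusted), with Hspa1a (0.237) and Hspb1 (0.211) leading and Hspe1 (-0.0537) last.

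Markers of cell types and brain regions bear on which tissue an array sampled. Over 134 marker genes in 18 lists, 8 were called with Arc and 2 with Dusp1, all lower, which is 5.97% and 1.49%, against 1.22% and 0.226% of all genes lower. For Egr4 55 were higher and 35 lower, against 32.9% and 32.7% of all genes. Of 7 glutamatergic cortical neuron genes 7 were higher with Egr4 (median r 0.459, r of their mean z 0.771). With Junb 5 were higher and 0 lower, against 25.8% and 26% of all genes. With Egr1 it was 5 and 1, against 27.1% and 20.1%, and with Npas4 2 and 4, against 36.2% and 32.7%. With Arc and Dusp1 0 were called (limma, 3 and 0 higher unadjusted). Of 9 striatum genes 7 were higher and 1 lower with Egr4. Lists that are not of neurons also had genes called with Egr4. Of 8 microglia genes 6 were higher and 2 lower, and of 11 genes of endothelium and pericytes 7 and 1. Of 9 genes of meninges and fibroblasts it was 5 and 2, and of 7 astrocyte genes 2 and 3. Of 7 pan-neuronal genes, 0 were called with Arc, Dusp1 or Egr2 (limma; 0, 0 and 2 unadjusted). Of all genes 3.34%, 0.721% and 10.8% were called either way with these. With Egr4 3 pan-neuronal genes were higher and 3 lower, with Junb 3 and 2, and with Egr1 2 and 2. With Fos it was 1 and 1, with Nr4a1 0 and 1, and with Npas4 3 and 3. Of all genes 65.6% were called either way with Egr4, 51.8% with Junb, 47.2% with Egr1, 27.4% with Fos, 39.5% with Nr4a1 and 68.9% with Npas4. Of 8 measured cerebellum genes 5 were lower with Arc, against 1.22% of all genes, and 6 with Egr2, against 5.55%. With Egr1, Nr4a1 and Egr4 it was 6 each, against 20.1%, 20.6% and 32.7% of all genes, with Fos and Junb 3 each, against 14.2% and 26%, and with Dusp1 0 (0 unadjusted), against 0.226%. Cbln3, a granule cell gene, had an r of -0.273 with Arc. With mean z of the cerebellum, olfactory bulb, pituitary and striatum lists as covariates, all 28 pairs of early genes other than Npas4 were called, with r from 0.412 to 0.862. The 5 cerebellum calls with Arc were 0 without the 25 animals of lowest number, and also 0 by ranks over animals and with the tissue lists as covariates. The 6 with Egr2 were 4, 2 and 1 in these settings.

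The animal number is the only label that differs between animals, and what it records is not stated in the labels. For 1 animal the title gives 399 and the source name 339; the latter was used, and with 399 the same count of genes was called. Over 248 animals Junb, Egr1, Egr4 and Arc were lower at higher numbers, with r of -0.243, -0.236, -0.230 and -0.206 and limma adjusted p of 0.0020, 0.0026, 0.0035 and 0.010. Their permutation p were 0.00012, 0.00015, 0.00025 and 0.00112. In the same order rho was -0.211, -0.212, -0.225 and -0.185, with permutation p of 0.00072, 0.0008, 0.00037 and 0.00357, and when the 2 animals with the most extreme numbers about the median were dropped r was -0.239, -0.247, -0.235 and -0.200. Of the 9 genes 4 were thus called lower, where 10.3% of all genes were lower and 6.46% higher. The other r were -0.156 for Nr4a1, -0.136 for Fos, -0.119 for Dusp1, -0.117 for Egr2 and -0.00887 for Npas4, none past the threshold (adjusted p from 0.069 to 0.95).

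A straight line described the relation poorly, since the difference lay in the first numbers. In 10 blocks of consecutive numbers, the first block (25 animals, numbers 1 to 33) had the highest mean of all 10 for each of the 8 genes other than Npas4. Arc stood there at 0.181 ± 0.158 (SD, n = 25), from -0.146 over a median of 0.193 to 0.511, with 21 of 25 animals above the pool. In the second block (numbers 34 to 63) Arc stood at -0.131 ± 0.148 (n = 25), from -0.371 over -0.137 to 0.235, with 3 of 25 above, a ratio of 2.05-fold between adjacent blocks. Egr2 had means of 0.169 ± 0.184 and -0.166 ± 0.147, with 20 and 2 of 25 animals above the pool, a ratio of 2.17-fold. Nr4a1 had 0.129 ± 0.109 and -0.0781 ± 0.0899, with 24 and 3 animals above the pool, a ratio of 1.61-fold. Dusp1 had 0.0843 ± 0.108 and -0.100 ± 0.0812, a ratio of 1.53-fold, and Fos 0.0494 ± 0.0695 and -0.0418 ± 0.0571, a ratio of 1.23-fold. The ranges of the 2 blocks overlap for every one of these genes. For each of them the second block had the lowest mean of all 10, so the ratios set the highest block against the lowest. Over the other 223 animals the first block stood at 1.76-fold for Egr2, 1.67-fold for Arc and 1.42-fold for Nr4a1. It stood at 1.33-fold for Dusp1 and 1.16-fold for Fos. For Egr4, Egr1 and Junb, whose second block was not the lowest, it stood at 1.44-fold, 1.43-fold and 1.17-fold. In the first and second blocks Npas4 had -0.00809 ± 0.0250 and -0.00616 ± 0.0279.

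Blocks in place of a line were chosen after seeing the data. In limma's F test over the 10 blocks 8 of the 9 genes were called, against 18.8% of all genes, with adjusted p of 5.7e-07 for Arc, 1.1e-06 for Nr4a1 and 0.0058 for Fos, the largest of the 8, and 0.63 for Npas4. The blocks held 21.5% of the variance of Arc, 21.0% of that of Nr4a1 and 11.9% of that of Fos. The first block minus the other animals was 0.246 for Egr2, 0.224 for Arc and 0.159 for Egr4, each above at least 99.8% of all genes. Without the first block 0 of the 9 genes were called with animal number (0 at an unadjusted p under 0.05, lowest 0.118), and Arc had an r of 0.00467. All 28 pairs other than those of Npas4 were still called without it, with r from 0.307 to 0.839. With no test, r between animals adjacent in number was 0.348 for Nr4a1, 0.290 for Junb, 0.265 for Arc and 0.210 for Dusp1, against a median of 0.0215 over all genes.

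Other lists differed in the first block too. Its median difference from the other animals was 0.0965 over the 8 olfactory bulb genes (-0.0198 to 0.394), -0.0806 over the 8 cerebellum genes (-0.314 to -0.0237), -0.109 over the 6 pituitary genes (-0.238 to -0.00709) and 0.000179 over all 11508 genes. Over the 28 other early regulators it was 0.0293 and over the 9 early genes themselves 0.151. With the scores of the tissue lists as covariates, 1 of the 9 genes was called with animal number in place of 4.

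**Figure D5:**
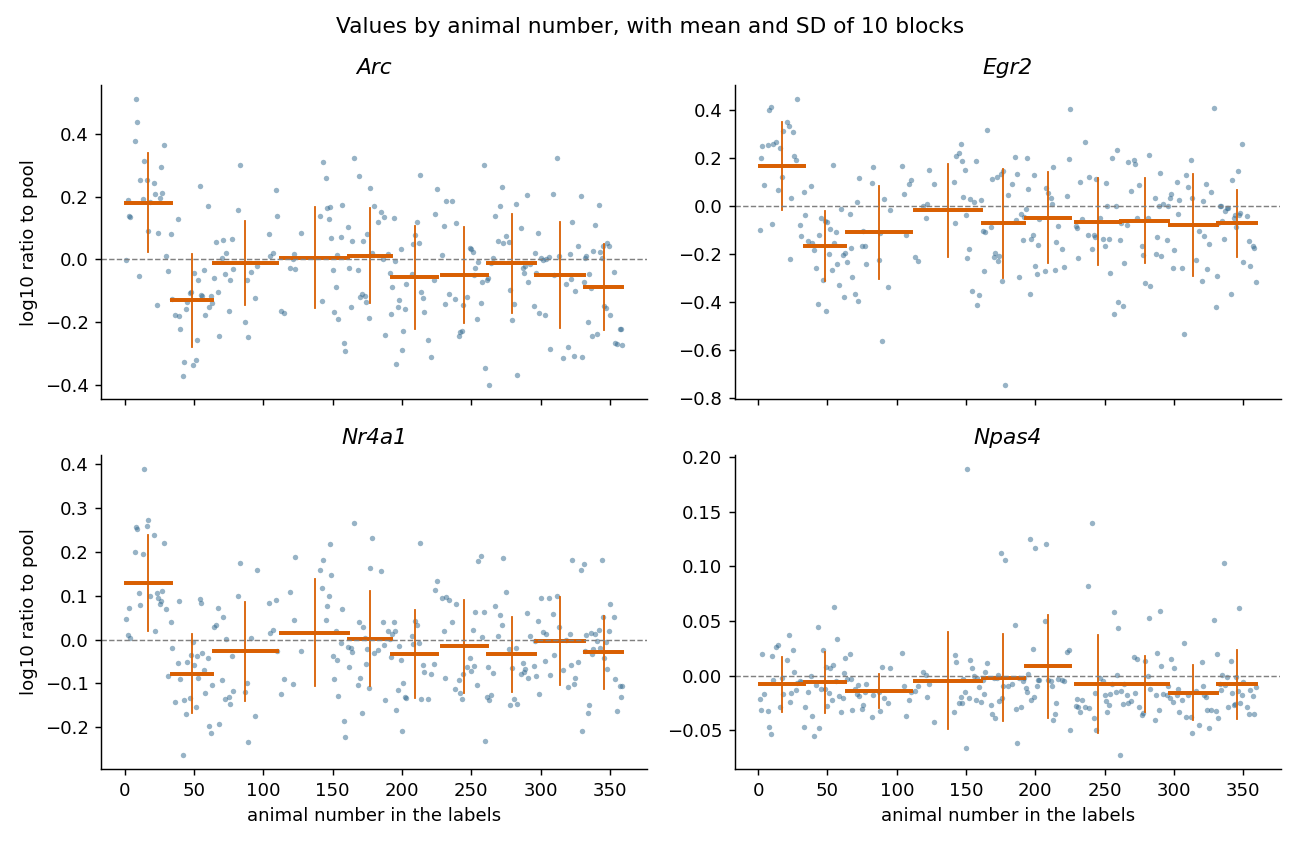
Points are 248 animals by the animal number in the labels (x axis) and log10 ratio to the pool (y axis, its own range in each panel), orange bars are means of 10 blocks of numbers and thin lines are 1 SD to each side. For Arc, Egr2 and Nr4a1 the first block lies above the pool (0.181, 0.169 and 0.129) and the second below it, while the blocks of Npas4 stay near 0.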

How the data were processed

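The authors deposited a log10 ratio for each probe on each array. The labels give the dyes but not the direction of the ratio; it was read as animal over pool because Eif2s3y, a Y-linked gene that a pool of both sexes holds, had a 5th percentile of -1.72 and a 95th of 0.418. How scanning, background correction and dye normalization were done is not given in the sources used here. Array medians ran from -0.00627 to 0.0250, and no early gene reached the scale limits of -2 and 2. Probes with a single symbol and a value on 90% of arrays or more were averaged per gene, and missing values took the mean of their probe, which left 13444 of 23388 probes and 11508 genes. Symbols follow RefSeq on GRCm38.p6. With 1 array for each animal, precision depends on how many animals there are.

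Every gene was regressed on each early gene and on animal number with limma 3.58.1 in R 4.3.3, with Benjamini-Hochberg adjustment over all genes and an adjusted p threshold of 0.05. The method was tested on simulated data. The early genes and the 24 gene lists (6 pathways, 18 tissues and cell types; 231 of 286 genes measured) were chosen with earlier results of these data known, so list counts are descriptions. Named were every early gene, the 20 genes of highest and 5 of lowest r with their mean z, the 3 closest to each, and in each list the 2 highest and 1 lowest. Values were called clustered when a mixture of 2 normals gained over 10 in BIC with means at least 3 SD apart. Alternatives were animal 144, ranks, array scaling, wide arrays, parts of the animal numbers, covariates and probe choice.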

Additional observations from a re-analysis of the deposited data

Results flagged for a closer look

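The array of animal 144, which enters no comparison, held a Dusp1 value of 0.734, above the 0.277 that was the highest of the other 248 animals. On the same array Egr4 stood at -1.92 and Arc at -1.30, below the lowest values of the others (-0.536 and -0.402), so that Dusp1 and Arc, the pair of highest r elsewhere, lay on opposite sides of the pool. Egr2 stood at 0.212, Junb at 0.140, Npas4 at 0.113, Fos at 0.0436, Nr4a1 at -0.141 and Egr1 at -0.247, all within the range of the other animals.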

How the results depend on the processing

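Over 13 alternatives the count of positive pairs stayed between 27 and 29 (29 as reported). Of the main counts and values recomputed under alternatives, 102 moved by less than 1.5 times or the spread, and 25 moved by more. Early genes lower with animal number (4) were 1 with tissue scores as covariates, 0 without the 25 animals of lowest number (the first block) and 4 with the number in the title; an F test over 10 blocks, which has no direction, called 8. Early regulators with Arc (12) were 5 in the higher animal numbers and 7 without the first block; with Dusp1 (7) they were 15 with animal 144, 4 in the higher numbers and 11 with 3 principal components; with Egr2 (13) and with Fos (14) they were 8 in the higher numbers. Effectors with Arc (11) were 6 in the lower numbers, 2 in the higher, 6 with tissue scores and 4 without the first block. Cerebellum genes lower with Arc (5) were 0 with animal 144, by ranks, in the lower and in the higher numbers, with blocks, with tissue scores and without the first block (unadjusted 6 of 8 as reported, limma); with Egr2 (6) they were 2 by ranks, 1 in the lower and 2 in the higher numbers and 1 with tissue scores. The r of Npas4 turned with 3 principal components to -0.301 for Egr1 and -0.324 for Nr4a1, and r of Arc with animal number turned to 0.00467 without the first block, as did those of Egr2 (0.104), Nr4a1 (0.0788), Dusp1 (0.0693) and Fos (0.0171), which had not been called. The causes were not tested, beyond the smaller number of animals in parts of the numbers. All genes called ranged from 23 to 4077 for Arc, 24 to 3506 for Dusp1, 180 to 2647 for Egr2, 832 to 4507 for Fos, 1262 to 5975 for Junb, 1692 to 4568 for Nr4a1, 2823 to 5918 for Egr1, 3841 to 8057 for Egr4 and 4412 to 7978 for Npas4. No paired analysis was possible because the animals form 1 group. Signal over background was not analysed here.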
